A study of Mus musculus with 6 samples.

Results

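Histone-modifying enzymes write and erase acetyl and methyl groups on the tails of histones. Members were the genes of the deposited table whose symbol begins with Kmt, Kdm, Setd, Hdac, Sirt or Kat (Kat numbers from 2 to 8 only), together with Ezh1, Ezh2, Eed, Suz12, Ehmt1, Ehmt2, Ep300 and Crebbp. The rule used names and no measured value. It found 69 of the table's 25865 genes, 33 writers (methyltransferases, acetyltransferases and the core of Polycomb repressive complex 2, PRC2) and 36 erasers (demethylases, HDACs and sirtuins). All 69 passed the filter of a mean of at least 1 normalised read over the samples.

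Writers and erasers act on the same lysines in opposite directions. Acetylation by enzymes such as CREBBP and EP300 marks active promoters and enhancers, and is removed by the zinc-dependent HDACs and the NAD-dependent sirtuins. Methylation of H3K4 (lysine 4 of histone H3) and of H3K36 accompanies transcription, while methylation of H3K9, H3K27 and H4K20 accompanies silencing. In lymphocytes these enzymes are known for keeping lineage genes and cytokine loci accessible or silent, with the PRC2 enzyme EZH2 abundant in dividing cells.

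The cells were group 2 innate lymphoid cells (ILC2s), tissue lymphocytes that make type 2 cytokines, sorted from the large intestine of C57BL/6 mice. The culture ran for 5 days in complete IMDM with 10 ng/mL each of the cytokines IL-33, IL-25, IL-7 and IL-2. The 3 Toyocamycin samples then received toyocamycin, an adenosine analogue known to block the RNase of the stress sensor IRE1 and ribosomal RNA processing, for 16 h, and the 3 Control samples received vehicle. The sources used here do not give the dose, the sex and age of the mice, or whether replicates were separate cultures. The p-values therefore reflect the spread among these 6 samples alone, and that spread may be technical.

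Libraries held 22.3 M to 36.7 M reads in genes. The 11 ILC2 markers summed to 534656 to 547324 normalised reads in Control and 422548 to 458260 with toyocamycin. That sum hides opposite changes, since 4 of them (Rora, Gata3, Icos and Il1rl1) were above every Control value in every toyocamycin sample and the other 7 below. Rora went from 1304 to 1538 up to 18008 to 19294, and Il13 from 86022 to 92377 down to 11473 to 13804. Summed markers of other cells were low, at 190.4 to 239.7 over all samples for 6 T cell genes and at 0 to 9.65 for 4 NK cell and ILC1 genes, of which Ncr1, Eomes and Tbx21 had at most 3 reads in any sample. The 4 B cell markers summed to 359.7 to 464.3 in Control and 182.1 to 210 with toyocamycin, nearly all from Cd79b, and the 5 fibroblast and endothelial markers to 1255 to 1404 and 698.7 to 883.9, mostly from Pecam1. The 5 macrophage and dendritic cell markers summed to 876.8 to 1287 and 1063 to 1547, the 4 ILC3 markers to 186.9 to 206.6 and 167.7 to 199.1, and the 5 epithelial markers to 177.3 to 252.8 and 203.4 to 219.8. Their part in the results was not tested. In bulk RNA, fewer cells of a type and less RNA per cell cannot be told apart.

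Toyocamycin-treated ILC2s had higher transcripts of most demethylases and acetyltransferases, and lower transcripts of Ezh2. Of 20 methyltransferases outside PRC2, 12 were higher and 6 lower, and of 7 sirtuins 3 were higher and 4 lower. Among all genes tested, 32.8% were higher and 33.1% lower. The acetyltransferase gene Crebbp rose 5.68-fold, the demethylase gene Kdm5b 6.14-fold and the deacetylase gene Hdac4 6.44-fold. The deacetylase gene Hdac6 fell 6.99-fold and the H4K20 methyltransferase gene Kmt5c 6.22-fold. Values are normalised read counts (reads divided by the authors' size factor for each sample), folds are quotients of the group means, and limma gave the log2 changes, their standard errors (SE) and the adjusted p-values. Where genes were chosen by their change in these samples, groups that do not overlap describe the values and are no further support. The share of all genes with such groups is not given here.

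Of 69 members, 40 rose and 20 fell with adjusted p below 0.05. That is 87% of the members, against 65.9% of all 16223 genes tested. Higher calls made up 58% of the members and 32.8% of all genes, and lower calls 29% and 33.1%. A log2 change of size 1 or more was present in 20 higher and 10 lower members, where 17% of all genes were higher and 20.5% lower by that size. The median log2 change was 0.39 in members and −0.03 in all genes.

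Writers and erasers did not stand apart as groups. Of 33 writers, 20 were higher, 10 lower and 3 did not pass, with a median log2 change of 0.39. Of 36 erasers, 20 were higher, 10 lower and 6 did not pass, with a median of 0.40. Reads on writers made up 0.452% to 0.504% of a library in Control and 0.637% to 0.644% with toyocamycin, and those on erasers 0.238% to 0.248% and 0.353% to 0.358%. Neither range overlapped between the groups, and both shares were higher with toyocamycin.

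The scaling of the samples sets where 0 lies. With samples set to equal totals, 14 writers were higher and 13 lower, and 16 erasers were higher and 14 lower, while 24.9% of all genes were higher and 42.5% lower. The median of all genes moved to −0.36 under that scaling, and that of the members to 0.04. With edgeR on the recovered reads, 20 writers were higher and 11 lower, and 20 erasers higher and 10 lower (38.5% and 41.2% of the genes it tested). In all 17 fits run, the same direction passed for 29 higher and 13 lower members.

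**Figure D1:**
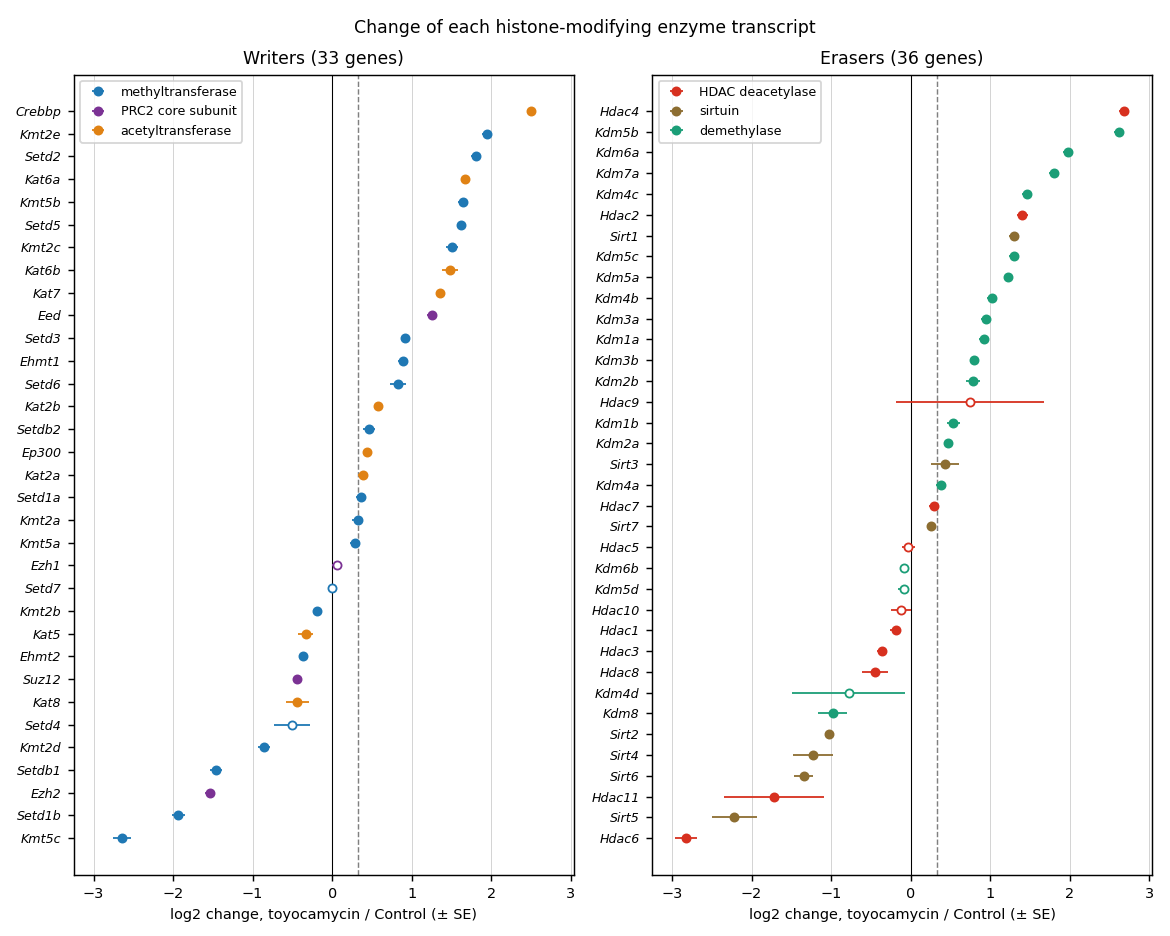
Log2 change (toyocamycin over Control, x axis, bars are SE, n = 3 per group) of each writer (left) and eraser (right), coloured by enzyme class. Open points did not pass an adjusted p of 0.05, and the dashed line marks where 0 lies with equal totals. Crebbp, Hdac4 and Kdm5b lie farthest right, and Hdac6 and Kmt5c farthest left.

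Promoter sequence is shown for members that lie at the extremes or whose paralogs moved apart, so that it can be read beside the values that follow. Each line gives the bases before the RefSeq start (GRCm38.p6), 5′ to 3′ in the gene's sense, without any base that a GENCODE exon covers. Capitals mark matches on either strand to TTTCCCGC or TTTGGCGC (E2F), GCATGCGC (NRF1), GGGCGG (SP and KLF factors), CCAAT (NFY), TGACGTCA (CRE), CCGGAAG (ETS) or CACGTG (E-box), and no 2 of these motifs share letters on the same stretch shown.
Kmt5b (chr19:3767171-3767420, plus strand): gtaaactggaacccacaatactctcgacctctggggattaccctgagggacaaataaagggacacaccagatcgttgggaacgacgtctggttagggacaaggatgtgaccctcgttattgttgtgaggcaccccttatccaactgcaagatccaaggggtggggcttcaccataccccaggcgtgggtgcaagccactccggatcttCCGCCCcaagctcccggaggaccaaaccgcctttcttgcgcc
Kmt5c (chr7:4739877-4740114, plus strand): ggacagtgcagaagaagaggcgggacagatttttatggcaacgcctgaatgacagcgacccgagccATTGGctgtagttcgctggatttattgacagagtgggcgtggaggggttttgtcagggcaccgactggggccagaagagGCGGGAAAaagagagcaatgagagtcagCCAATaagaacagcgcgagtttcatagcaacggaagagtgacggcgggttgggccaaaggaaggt
Hdac4 (chr1:92180342-92180591, minus strand): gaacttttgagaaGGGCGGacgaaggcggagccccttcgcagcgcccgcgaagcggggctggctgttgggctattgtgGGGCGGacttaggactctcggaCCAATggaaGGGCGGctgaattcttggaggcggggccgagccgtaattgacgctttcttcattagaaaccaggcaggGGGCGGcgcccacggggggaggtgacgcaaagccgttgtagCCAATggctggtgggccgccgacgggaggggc
Hdac6 (chrX:7947890-7948139, minus strand): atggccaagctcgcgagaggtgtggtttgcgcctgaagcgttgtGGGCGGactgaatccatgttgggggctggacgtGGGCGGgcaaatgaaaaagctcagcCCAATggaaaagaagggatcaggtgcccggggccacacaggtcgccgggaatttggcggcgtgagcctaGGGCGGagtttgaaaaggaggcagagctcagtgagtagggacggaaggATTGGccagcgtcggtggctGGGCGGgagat
Hdac2 (chr10:36974294-36974543, plus strand): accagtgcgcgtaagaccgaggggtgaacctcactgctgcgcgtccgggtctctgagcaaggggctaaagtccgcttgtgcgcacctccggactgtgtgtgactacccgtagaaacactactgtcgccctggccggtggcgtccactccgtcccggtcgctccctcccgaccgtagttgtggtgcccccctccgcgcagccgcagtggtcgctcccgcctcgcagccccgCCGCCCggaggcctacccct
Kdm5b (chr1:134559928-134560170, plus strand): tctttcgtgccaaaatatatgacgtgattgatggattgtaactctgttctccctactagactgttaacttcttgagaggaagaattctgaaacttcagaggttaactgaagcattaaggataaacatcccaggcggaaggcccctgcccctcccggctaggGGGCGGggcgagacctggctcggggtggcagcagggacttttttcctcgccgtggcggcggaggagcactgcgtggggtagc

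Hdac4 and Hdac6, which moved farthest in opposite directions, both held 4 GGGCGG and 2 CCAAT matches. The Hdac4 window lies inside the GENCODE span of that gene, which reaches 92195699, before an internal RefSeq start. The other windows shown lie just before the start of the gene's GENCODE span. Kmt5c held 1 E2F match and 2 CCAAT matches, and Kmt5b 1 GGGCGG match. Hdac2 and Kdm5b each held 1 GGGCGG match. Windows of 300 bases were given for 57 of the 69 members and for 12183 tested genes. GGGCGG was present in 57.9% of the members' windows and 60.8% of all windows, and CCAAT in 45.6% and 38.5%. An E2F motif was present in 7% (only 4 of 57 windows) and 2.8%, and CCGGAAG in 19.3% and 16.4%. CACGTG was present in 8.8% and 9.6%, GCATGCGC in 3.5% and 4.9%, and TGACGTCA in 0% and 3%. The median GC content of the windows was 60.7% in members and 60.3% in all. A match is a description of letters and not a binding site.

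Acetyltransferases were mostly higher. Of 9, 7 rose and 2 fell, with a median log2 change of 0.58 (5 and 2 with equal totals). The shares of all genes were 32.8% higher and 33.1% lower (24.9% and 42.5% with equal totals). The paralogs Crebbp and Ep300 encode large co-activators that acetylate H3K27 at enhancers. Crebbp (chromosome 16, 4081328 to 4213997, GRCm38) had 2247, 2344 and 2080 normalised reads in Control and 12312, 13303 and 12253 with toyocamycin (log2 change 2.51, SE 0.056, adjusted p = 9.06e-19). Ep300 (chromosome 15, 81585351 to 81652077) had 7241, 7912 and 6588 in Control and 10043, 9984 and 9436 with toyocamycin (log2 change 0.44, SE 0.060). All Control values lay below all toyocamycin values for both genes, but the Ep300 change was 0.09 with equal totals and then did not pass. Ep300 had 3.25 times the reads of Crebbp in Control and 0.78 times with toyocamycin.

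Among the MYST family of acetyltransferases, Kat6a, Kat6b and Kat7 rose. Kat6a, which encodes a partner of the BRPF scaffold proteins, had 4687, 4931 and 4252 normalised reads in Control and 14170, 15701 and 14367 with toyocamycin (3.19-fold). Its paralog Kat6b had far fewer, 327.1, 364.2 and 299.3 in Control and 975.9, 927.4 and 853.6 with toyocamycin (2.78-fold). Kat7, which encodes an acetyltransferase of H3K14 and of histone H4, had 3295, 3470 and 3329 in Control and 8402, 8840 and 8635 with toyocamycin (2.56-fold). The groups did not overlap for any of these genes. The log2 changes of Kat6a, Kat6b and Kat7 were 1.33, 1.13 and 1.01 with equal totals.

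The other MYST members fell less. Kat5, which encodes the catalytic subunit of the NuA4 complex, had a log2 change of −0.33 and Kat8, the H4K16 acetyltransferase gene, one of −0.44. Both calls depended on single samples, since Kat5 did not pass without Control replicate 1 (−0.28) and Kat8 did not pass without Control replicate 3 (−0.33). Kat2a and Kat2b, which encode the interchangeable catalytic subunits of the SAGA and ATAC complexes, had log2 changes of 0.39 and 0.58 (0.04, not passing, and 0.23 with equal totals). A copy of Kat2b on chromosome 5 is 95.1% identical over 2479 bases, so Kat2b reads are uncertain. About 12.1% of the Kat5 exons overlap Rnaseh2c on the other strand.

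H3K4 methyltransferases moved in both directions, as did all genes. Of 7, 3 rose, 3 fell and 1 did not pass (1 and 4 with equal totals). The shares of all genes were 32.8% higher and 33.1% lower (24.9% and 42.5% with equal totals). The paralogs Kmt2c and Kmt2d encode the enzymes that mono-methylate H3K4 at enhancers. Kmt2c (chromosome 5, 25271798 to 25498783) had 4264, 4878 and 3602 normalised reads in Control and 11872, 12306 and 11780 with toyocamycin (2.82-fold, log2 change 1.51, SE 0.075, adjusted p = 1.18e-13). Kmt2d (chromosome 15, 98831669 to 98871204) had 11985, 12464 and 9576 in Control and 6141, 6717 and 5869 with toyocamycin (1.82-fold lower, log2 change −0.85, SE 0.076, adjusted p = 1.79e-09). Kmt2d had more reads than Kmt2c in every Control sample and fewer in every toyocamycin sample. The log2 ratio of Kmt2c to Kmt2d within a sample went from −1.42 ± 0.069 to 0.94 ± 0.066 (SD, n = 3).

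Setd1a and Setd1b encode paralogous enzymes that deposit H3K4 trimethylation at promoters. Setd1b (chromosome 5, 123142193 to 123168629) had 2737, 2850 and 2353 normalised reads in Control and 752.8, 707.2 and 616.8 with toyocamycin (3.82-fold lower, log2 change −1.93, SE 0.083, adjusted p = 1.16e-14). Setd1a had 3190, 3564 and 3206 in Control and 4126, 4661 and 4048 with toyocamycin (log2 change 0.36, or 0.02 and not passing with equal totals). Its exons overlap another annotated gene over 51.8% of their length, so its reads are uncertain. Reads of Setd1a exceeded those of Setd1b 1.26-fold in Control and 6.18-fold with toyocamycin.

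Smaller changes were found for Kmt2a (log2 change 0.32), which encodes the MLL1 enzyme of haematopoietic cells, and Kmt2b (−0.19). With equal totals Kmt2a had −0.03, and the Kmt2b call ended without Control replicate 2 (−0.14). Setd7, an H3K4 mono-methyltransferase gene, had 3290, 3310 and 3145 normalised reads in Control and 3274, 3264 and 3215 with toyocamycin. Its groups overlapped (log2 change 0.00, SE 0.053, adjusted p = 0.98), but with equal totals it was lower (−0.35).

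Several SET domain genes outside the H3K4 enzymes rose together. Kmt2e (chromosome 5, 23434441 to 23504235), whose product is a chromatin reader of the same family with no firmly known enzyme activity, had 6398, 6666 and 5622 normalised reads in Control and 23996, 25166 and 22737 with toyocamycin (3.85-fold, adjusted p = 6.19e-17). Setd2 (chromosome 9, 110532597 to 110618633), the sole known enzyme for H3K36 trimethylation on transcribed genes, had 3893, 4493 and 3779 in Control and 13638, 14948 and 13764 with toyocamycin (3.48-fold, adjusted p = 2.83e-16). Setd5, whose product has a SET domain of debated activity, had 6028, 6314 and 5585 in Control and 18162, 18883 and 17959 with toyocamycin (3.07-fold). For each of these genes the highest Control value was below the lowest toyocamycin value. Setd3, which encodes an actin histidine methyltransferase, rose with a log2 change of 0.92, and Setd6, whose product methylates the NF-kB subunit RELA, with 0.83. A copy of Setd3 on chromosome 2 is 97.2% identical over 1797 bases, so Setd3 reads are uncertain. About 9.3% of the Kmt2e exons overlap Srpk2 on the other strand. Setd4 had a log2 change of −0.51 (adjusted p = 0.0568).

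H4K20 methylation enzymes showed the widest split between paralogs. Kmt5a deposits the first methyl group, and Kmt5b and Kmt5c add the next ones. Kmt5b (chromosome 19, 3767421 to 3818303) had 2010, 2107 and 2081 normalised reads in Control and 6151, 7028 and 6194 with toyocamycin (3.13-fold, log2 change 1.64, SE 0.059, adjusted p = 6.22e-16). Kmt5c (chromosome 7, 4740115 to 4747514) had 1275, 1379 and 1315 in Control and 208.7, 250.7 and 178.5 with toyocamycin (log2 change −2.64, SE 0.111, adjusted p = 7.65e-15). The groups did not overlap for either gene, and Kmt5b had 1.56 times the reads of Kmt5c in Control and 30.5 times with toyocamycin. Kmt5a had a log2 change of 0.28, which was −0.07 with equal totals and −0.23 with quantile normalization.

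H3K9 methyltransferases also divided. Setdb1 (chromosome 3, 95323525 to 95357202), whose product silences retroelements with KAP1, had 1971, 2087 and 2024 normalised reads in Control and 785.8, 753.8 and 671.5 with toyocamycin (2.75-fold lower, log2 change −1.46, SE 0.073, adjusted p = 1.39e-13). Setdb2 had 809.1, 766.2 and 784.6 in Control and 1038, 1156 and 1061 with toyocamycin (log2 change 0.46, or 0.11 and not passing with equal totals). Setdb1 therefore exceeded Setdb2 in all Control samples and lay below it in all toyocamycin samples. Ehmt1 and Ehmt2 encode the GLP and G9a subunits of the H3K9 di-methylation complex, and had log2 changes of 0.89 and −0.37. Ehmt2 had 4.79 times the reads of Ehmt1 in Control and 2.01 times with toyocamycin.

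Genes of the PRC2 core moved in different directions, with 1 risen, 2 fallen and 1 that did not pass. The shares of all genes were 32.8% higher and 33.1% lower. Ezh2 (chromosome 6, 47530139 to 47595341), the main H3K27 methyltransferase gene of dividing cells, had 3059, 3324 and 3137 normalised reads in Control and 1043, 1176 and 1061 with toyocamycin (2.90-fold lower, log2 change −1.54, SE 0.065, adjusted p = 8.9e-15). Eed, which encodes the subunit that binds methylated H3K27, had 1804, 1790 and 1942 in Control and 4244, 4669 and 4269 with toyocamycin (2.38-fold, log2 change 1.25, SE 0.059, adjusted p = 5.7e-14). Ezh1, the paralog of resting cells, had 2034, 2123 and 2041 in Control and 2100, 2231 and 2122 with toyocamycin, with overlapping groups (log2 change 0.06, SE 0.059, adjusted p = 0.406). With equal totals Ezh1 was lower (−0.29). The structural subunit gene Suz12 fell with a log2 change of −0.44. Ezh2 had 1.54 times the reads of Ezh1 in Control and 0.51 times with toyocamycin.

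Of 10 other PRC2 partners in a list of accessory subunits, 6 rose and 3 fell, where 32.8% of all genes were higher and 33.1% lower. Phf19, which guides PRC2 to H3K36-methylated chromatin, fell 9.72-fold from 1109 ± 26.9 to 114.1 ± 12.7. Jarid2, which joins PRC2 to chromatin, rose 5.46-fold from 962.3 ± 52.3 to 5257 ± 215, and Lcor rose 8.18-fold. In PRC1, the complex that ubiquitinates histone H2A, 11 of 21 genes rose and 10 fell (7 and 12 with equal totals). The PRC1 list counts Kdm2b, which is itself a member. Ring1, which encodes 1 of its E3 ligases, fell 4.65-fold and Cbx6, a reader of H3K27 methylation, 3.82-fold, while Rybp rose 5.43-fold.

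**Figure D2:**
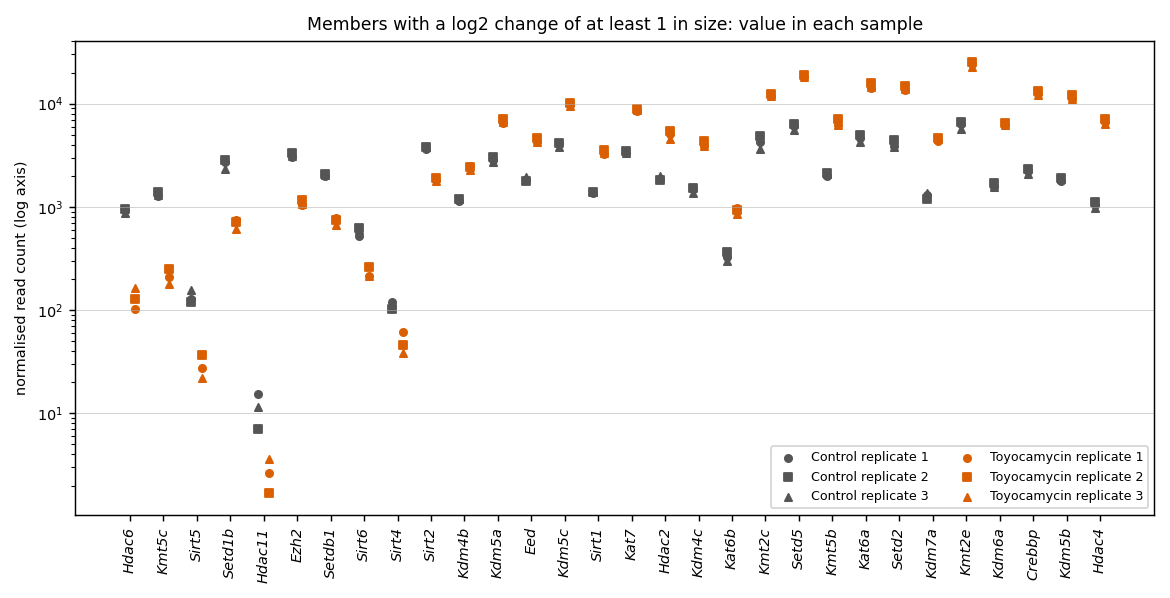
Normalised read counts (y axis, log scale) in each of the 6 samples for the 30 members past the threshold with a log2 change of size 1 or more, ordered by log2 change. Grey points are Control and orange points toyocamycin, with the replicate given by the shape. Hdac11 has the fewest reads. The groups lie apart for all of these genes, which is close to given, since the same samples chose them.

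Demethylases mostly rose. Of 18, 14 rose, 1 fell and 3 did not pass, with a median log2 change of 0.86. Of all genes, 32.8% were higher and 33.1% lower. With equal totals 13 rose and 3 fell, and the median was 0.51. Quantile normalization gave 12 higher and 3 lower, and the GC and length correction described below 15 and 2. Acetyltransferases had the same share of higher genes with the deposited scaling, 77.8%, and no lower gene in either of those fits. The class held 7 genes with a log2 change of at least 1 and none of at most −1.

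H3K4 demethylases had 5 risen genes of 6. Kdm5b (chromosome 1, 134560171 to 134635285) encodes an enzyme that removes H3K4 trimethylation. It had 1786, 1921 and 1872 normalised reads in Control and 11125, 12153 and 10993 with toyocamycin (log2 change 2.62, SE 0.055, adjusted p = 4.57e-19). Its X-linked paralog Kdm5c had 4125, 4186 and 3813 in Control and 9984, 10208 and 9529 with toyocamycin (2.45-fold), and Kdm5a had 2874, 3021 and 2747 in Control and 6546, 7043 and 6593 with toyocamycin (2.34-fold). The Control values of all 3 genes lay below their toyocamycin values. Kdm5b went from 0.65 to 1.70 times the reads of Kdm5a, while Kdm5c stood at 1.40 and 1.47 times Kdm5a.

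Kdm5d, the Y-linked member, had 1253, 1290 and 1311 normalised reads in Control and 1182, 1297 and 1152 with toyocamycin. Its groups overlapped (log2 change −0.09, SE 0.070, adjusted p = 0.287), and it was lower with equal totals (−0.44). Uty, the Y-linked relative of Kdm6a, rose 2.45-fold from 802.8 ± 33.7 to 1966 ± 233. Both Y-linked genes had reads in all 6 samples, which points to male cells in each, though the sex of the mice is not given. Kdm1a and Kdm1b, which encode the flavin-dependent H3K4 demethylases, had log2 changes of 0.92 and 0.54. About 9.2% of the Kdm1b exons overlap Dek on the other strand, and the sources used here do not say whether counting used strand.

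H3K27 demethylases were Kdm6a, Kdm6b and Kdm7a, the last of which also acts on H3K9. Kdm6a (chromosome X, 18162575 to 18279936) had 1558, 1693 and 1542 normalised reads in Control and 6184, 6501 and 6196 with toyocamycin (3.94-fold, log2 change 1.98, SE 0.057, adjusted p = 2.11e-17). Kdm6b, an inducible paralog known from inflammatory responses, had 3787, 4190 and 3587 in Control and 3575, 3654 and 3697 with toyocamycin, with overlapping groups (log2 change −0.08, SE 0.059, adjusted p = 0.255). Kdm7a had 1306, 1200 and 1367 in Control and 4386, 4615 and 4502 with toyocamycin (3.49-fold). Kdm6b had 2.41 times the reads of Kdm6a in Control and 0.58 times with toyocamycin. With equal totals Kdm6b was lower (−0.43).

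H3K9 demethylases had 6 risen genes of 7, counting Kdm7a. Kdm4c, which removes H3K9 trimethylation, had 1474, 1514 and 1370 normalised reads in Control and 3848, 4324 and 3884 with toyocamycin (2.77-fold, log2 change 1.47). Its paralog Kdm4b had 1146, 1193 and 1191 in Control and 2483, 2456 and 2268 with toyocamycin (2.04-fold), and Kdm4a had 3435, 3619 and 3384 in Control and 4292, 4871 and 4409 with toyocamycin (log2 change 0.38). The call of Kdm4a ended with equal totals (0.03). Kdm3a and Kdm3b, which remove the lower H3K9 methylation states, had log2 changes of 0.95 and 0.80. About 24.6% of the Kdm3b exons overlap a long non-coding RNA gene on the other strand. Kdm4d had at most 9.06 normalised reads in any sample and did not pass.

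The H3K36 demethylase genes Kdm2a and Kdm2b rose by 0.47 and 0.78 on the log2 scale. Kdm8, whose product is a JmjC oxygenase of debated histone activity, was the class's only lower gene with the deposited scaling, at 198.4, 184.3 and 210.6 normalised reads in Control and 97.7, 91.5 and 110.5 with toyocamycin (log2 change −0.98, SE 0.178, adjusted p = 5.15e-05).

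Deacetylases did not follow the demethylases. Of 18, 6 rose, 9 fell and 3 did not pass, with a median log2 change of −0.15 (3 rose and 11 fell with equal totals). After the GC and length correction 8 rose and 7 fell, with a median of 0.14, so the lean of the class depended on the fit. The HDACs alone then had 5 higher and 3 lower genes. Of all genes, 32.8% were higher and 33.1% lower with the deposited scaling. In class I, the nuclear HDACs of the NuRD, SIN3 and CoREST complexes, Hdac2 rose and Hdac1, Hdac3 and Hdac8 fell. Hdac2 (chromosome 10, 36974544 to 37001889) had 1861, 1823 and 1996 normalised reads in Control and 5059, 5445 and 4579 with toyocamycin (2.66-fold, log2 change 1.41, SE 0.064, adjusted p = 3.1e-14). Hdac1 had 1657, 1878 and 1649 in Control and 1512, 1571 and 1461 with toyocamycin (log2 change −0.19, SE 0.068, adjusted p = 0.0192). These paralogs had nearly equal reads in Control, where Hdac2 had 1.10 times those of Hdac1, and 3.31 times with toyocamycin.

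The Hdac1 call was weak. It was lost on leaving out Control replicate 2 (−0.13), or toyocamycin replicate 1 (−0.19) or 3 (−0.16). A processed copy on chromosome 17 is 99.4% identical to Hdac1 over 1444 bases, so its reads are uncertain. The Hdac8 change of −0.45 did not pass without Control replicate 2 (−0.37), Control replicate 3 (−0.40) or toyocamycin replicate 3 (−0.36). Hdac3, the catalytic partner of NCoR, had a log2 change of −0.36.

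Class IIa HDACs shuttle between cytoplasm and nucleus and bind MEF2 factors. Hdac4 (chromosome 1, 91928779 to 92195699) had 1037, 1115 and 969.8 normalised reads in Control and 6607, 7160 and 6331 with toyocamycin (log2 change 2.69, SE 0.064, adjusted p = 2.07e-18). About 22.4% of its exons overlap a long non-coding RNA gene on the other strand, so some of its reads may belong there. Hdac5 had 1082, 1279 and 1088 in Control and 1182, 1059 and 1138 with toyocamycin, with overlapping groups (log2 change −0.03, adjusted p = 0.787). Hdac7 had 2088, 2261 and 2084 in Control and 2550, 2725 and 2600 with toyocamycin, and its log2 change of 0.29 became −0.06 with equal totals. Hdac4 thus had 0.91 times the reads of Hdac5 in Control and 5.94 times with toyocamycin. Hdac9 had at most 4.86 normalised reads in any sample.

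Hdac6 (chromosome X, 7930120 to 7947889) encodes a class IIb enzyme that deacetylates tubulin in the cytoplasm. It had 931.4, 957.5 and 878.5 normalised reads in Control and 103, 127.9 and 165.1 with toyocamycin (log2 change −2.82, SE 0.141, adjusted p = 1.42e-13), and no sample of either group came near the other. Its relative Hdac10 had 375.1, 434.4 and 424.8 in Control and 318.3, 424.3 and 398.3 with toyocamycin, with overlapping groups (log2 change −0.12, adjusted p = 0.401). The class IV gene Hdac11 had few reads, 15.4, 7.02 and 11.4 in Control and 2.64, 1.69 and 3.64 with toyocamycin (log2 change −1.72, SE 0.628, adjusted p = 0.0206). Its call ended without Control replicate 1 (−1.48) or Control replicate 3 (−1.68). About 15.4% of the Hdac11 exons overlap another annotated gene on the other strand.

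Sirtuins had 3 higher and 4 lower genes of 7 (1 and 4 with equal totals). The shares of all genes were 32.8% higher and 33.1% lower (24.9% and 42.5% with equal totals). Sirt1, which encodes the nuclear deacetylase of p53 and FOXO factors, had 1365, 1409 and 1389 normalised reads in Control and 3286, 3591 and 3350 with toyocamycin (2.46-fold, log2 change 1.29, SE 0.059, adjusted p = 3.09e-14). Sirt6, whose product deacetylates H3K9 at telomeres and glycolysis genes, had 525.5, 630.1 and 602.1 in Control and 213.9, 263.4 and 214.9 with toyocamycin (2.54-fold lower, adjusted p = 2.26e-09). Sirt2, the cytoplasmic tubulin deacetylase gene, had 3604, 3783 and 3793 in Control and 1824, 1890 and 1791 with toyocamycin (2.03-fold lower, adjusted p = 6.64e-13). All 3 had groups that did not overlap. Sirt7, a nucleolar member, had a log2 change of 0.26 that became −0.09 with equal totals.

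The mitochondrial sirtuins act on metabolic enzymes more than on histones. Sirt5 had 126.8, 121.1 and 157.1 normalised reads in Control and 27.7, 36.4 and 21.9 with toyocamycin (4.71-fold lower), and parts of its transcript match other genes. Sirt4 had 119.6, 101.8 and 117.6 in Control and 60.8, 45.7 and 38.9 with toyocamycin (2.33-fold lower). Sirt3 was 0.43 higher on the log2 scale (adjusted p = 0.04), and 0.08 with equal totals, where it did not pass. That call of Sirt3 was lost on leaving out Control replicate 1 (0.35) or 3 (0.38), or toyocamycin replicate 1 (0.39) or 2 (0.33).

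**Figure D3:**
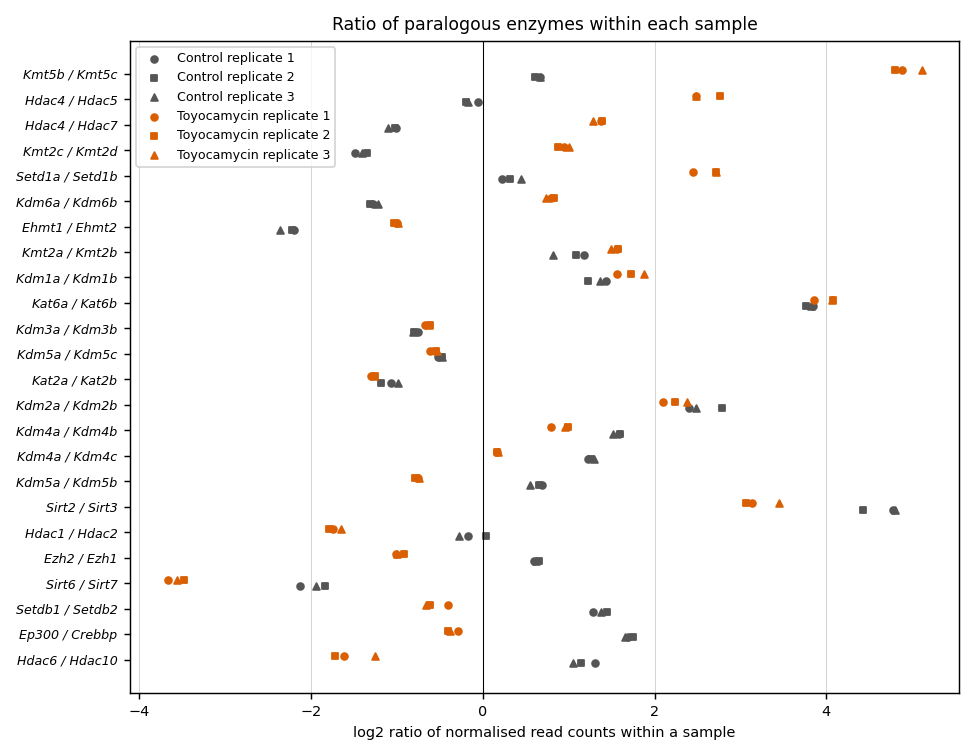
Log2 ratio of normalised reads of 2 paralogs within each sample (x axis) for 24 of the 25 pairs compared, with Control in grey and toyocamycin in orange. The pair with Hdac9, which had almost no reads, is left out. Kmt5b over Kmt5c moved farthest, and Ezh2 over Ezh1, Ep300 over Crebbp, Setdb1 over Setdb2, Kmt2c over Kmt2d and Kdm6a over Kdm6b are among those that crossed 0.

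A ratio of 2 genes within a sample does not change when a sample is multiplied by 1 factor, as with equal totals, but it can move with quantile normalization or the GC and length correction. The log2 ratio of Kmt5b to Kmt5c differed between the groups by 4.29, that of Hdac4 to Hdac5 by 2.71, that of Kmt2c to Kmt2d by 2.36 and that of Setd1a to Setd1b by 2.30. Hdac6 to Hdac10 differed by −2.70, Ep300 to Crebbp by −2.06, Setdb1 to Setdb2 by −1.92 and Ezh2 to Ezh1 by −1.60. Kmt5b to Kmt5c differed by 3.68 with quantile normalization and by 3.56 after the GC and length correction. Smaller differences were found for Kdm5a to Kdm5c (−0.07), Kdm3a to Kdm3b (0.15), Kat2a to Kat2b (−0.19) and Kat6a to Kat6b (0.20). These small values moved with the processing, to −0.60 for Kdm5a to Kdm5c, −0.20 for Kdm3a to Kdm3b and 0.46 for Kat2a to Kat2b after the GC and length correction, and to −0.54 for Kat6a to Kat6b with quantile normalization. The exact two-sided permutation p was 0.1 (0.104 adjusted over 25 pairs) for every pair, large or small, except Hdac4 to Hdac9 (0.2). It is the smallest p that 3 against 3 samples can give, so it does not set pairs apart.

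Levels of different genes were compared per kb of all annotated exons of a gene, and the order depends on that length. In Control, Ehmt2 was the most abundant member at 1254 ± 31.4 normalised reads per kb, followed by Suz12 at 1055 ± 33.5, Kmt5a at 851.2 ± 33.2 and Sirt2 at 740.2 ± 21.1 (SD, n = 3). These neighbours differed by more than their spread, unlike Kat7 (607.8 ± 16.8), Kdm4a (601.8 ± 21.4), Kmt2e (596.4 ± 51.9) and Kmt2a (595.8 ± 83.1), which came next. With toyocamycin, Kmt2e led at 2295 ± 116, before Kat6a at 1606 ± 90.7, Kat7 at 1558 ± 39.6 and Kdm5c at 1393 ± 48.6. Kat6a and Kat7 were within their spread of each other. Ehmt2 was then in place 10, at 972.6 ± 45.3, and Sirt2 in place 39. Per kb of the longest annotated protein-coding transcript, Sirt2 (1760 ± 50.1), Ehmt2 (1710 ± 42.8) and Kmt5a (1649 ± 64.2) came first in Control. Kmt2e (3275 ± 166) again led with toyocamycin, followed by Setd5 (2714 ± 71.8) and Kat7 (2423 ± 61.6), while Kat6a was in place 8 (1618 ± 91.4).

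Higher and lower members differed in the length of their genes. The 40 higher members spanned a median of 68.3 kb of genome and the 20 lower members 19.5 kb. Of 26 members with a span of 60 kb or more, 23 rose and 2, Ezh2 and Hdac8, fell. Among protein-coding genes of that span 37% were higher and 29.4% lower. Of 26 members under 30 kb, 8 rose and 15 fell, where 30.4% of protein-coding genes of that span were higher and 37.5% lower. Of 17 members between these limits, 9 rose and 3 fell (38.7% and 34.2% of such protein-coding genes). The split among short genes was not stable. Under 30 kb, 10 rose and 9 fell after the GC and length correction described next (median log2 change 0.00), and 3 rose and 18 fell with equal totals.

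Across the 69 members, Spearman's rho between span and log2 change was 0.64, and it was 0.61 in writers and 0.67 in erasers. Across 14468 protein-coding genes it was 0.08. Genes of 1 set of libraries are not independent replicates, so these values carry no test. The GC content of the transcript had a rho of −0.48 with the log2 change in members and −0.21 in protein-coding genes, and span and GC content were themselves related in members (rho −0.58). After smooth trends with transcript GC content and length were removed from each sample, the rho between span and log2 change was 0.53 in members and −0.01 in protein-coding genes. In that fit 21 writers were higher and 7 lower, and 23 erasers were higher and 9 lower, against 33.9% and 31.4% of all genes. The part of transcript length and GC content in single changes was not tested further.

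**Figure D4:**
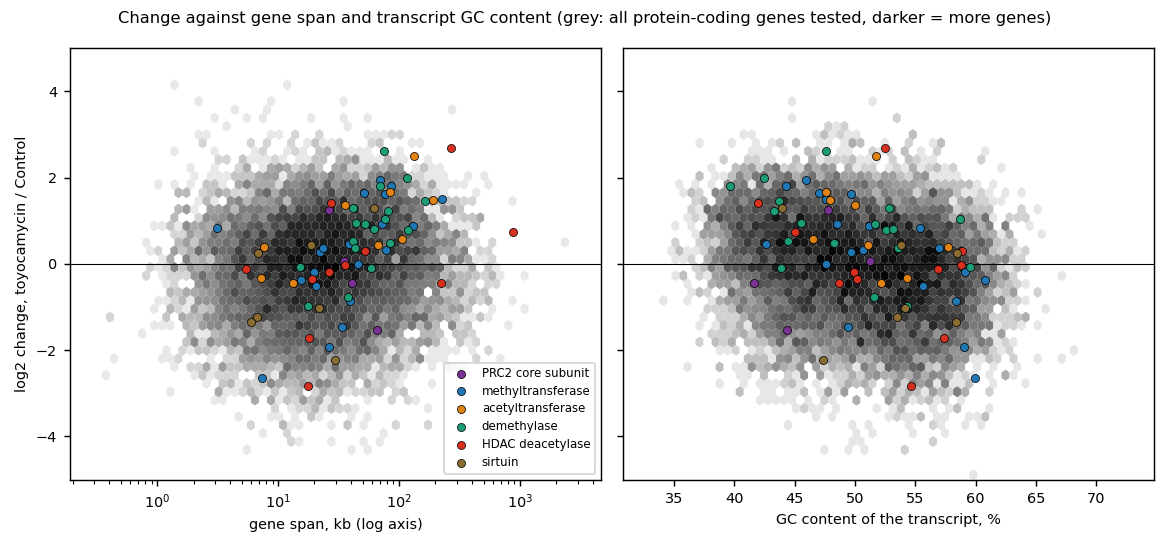
Log2 change (y axis) against gene span in kb (left, log axis) and GC content of the transcript in % (right). Coloured points are the 69 members by class, and grey hexagons the protein-coding genes tested, of which 11 lie beyond the axis limits of 5. Members with spans of 60 kb or more lie mostly above 0, and those under 30 kb mostly below it.

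Low values were not spread evenly over the libraries. Control replicate 3 was the lowest of its group in 28 of all 69 members, near the 27 of Control replicate 1. Among the 25 members with a transcript of at least 6000 bases, Control replicate 3 was lowest in 17 and Control replicate 1 in 7. Toyocamycin replicate 3 was the lowest of its group in 41 of 69 members, and in 17 of those 25. The same counts over all genes were not made, so this order cannot be called a trait of the members. Without Control replicate 3, 20 writers were higher and 9 lower, and 19 erasers were higher and 8 lower. Without toyocamycin replicate 3, 20 writers were higher and 10 lower, and 20 erasers were higher and 8 lower.

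Subunits that work with the members moved in both directions too, as did all genes, of which 32.8% were higher and 33.1% lower. Of 14 partners of the H3K4 methyltransferases in COMPASS complexes, 7 rose and 6 fell, with Rbbp5 up 2.42-fold, the shared scaffold gene Wdr5 up 2.08-fold and Pagr1a down 1.95-fold. Of 34 partners of acetyltransferases, 18 rose and 9 fell (median log2 change 0.54), among them Epc2 of the NuA4 complex (4.58-fold), the chromodomain gene Morf4l1 (4.26-fold) and Msl2, which acts with KAT8 (3.90-fold). Of 34 partners of deacetylases, 21 rose and 8 fell (median 0.39), with the NCoR subunit gene Tbl1x up 4.34-fold, the NuRD subunit gene Gatad2b up 4.31-fold and the CoREST gene Rcor2 down 4.21-fold. With equal totals, 18 acetyltransferase partners were higher and 15 lower, and 16 deacetylase partners were higher and 13 lower. Of all genes, 24.9% were then higher and 42.5% lower.

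Enzymes of the same reactions that the name rule leaves out were read in the same way, beside the same shares of all genes. Of 23 other histone methyltransferases, 7 rose and 10 fell (median −0.01, and 5 and 14 with equal totals), with Prdm2 up 3.95-fold, Prdm9 down 4.92-fold and the arginine methyltransferase gene Prmt7 down 3.47-fold. Of 8 other acetyltransferases, 5 rose and 3 fell. Hat1, which acetylates new histone H4 before its assembly into chromatin, fell 3.01-fold from 1574 ± 41.9 to 522.6 ± 35.5, and Naa40, which acetylates the N-terminus of histones H2A and H4, fell 3.03-fold. Clock rose 4.67-fold. Of 8 other demethylases of the JmjC family, 4 rose and 1 fell (4 and 4 with equal totals), and Jmjd1c rose 4.82-fold from 4489 ± 345 to 21629 ± 638 and Phf2 2.51-fold.

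**Figure D5:**
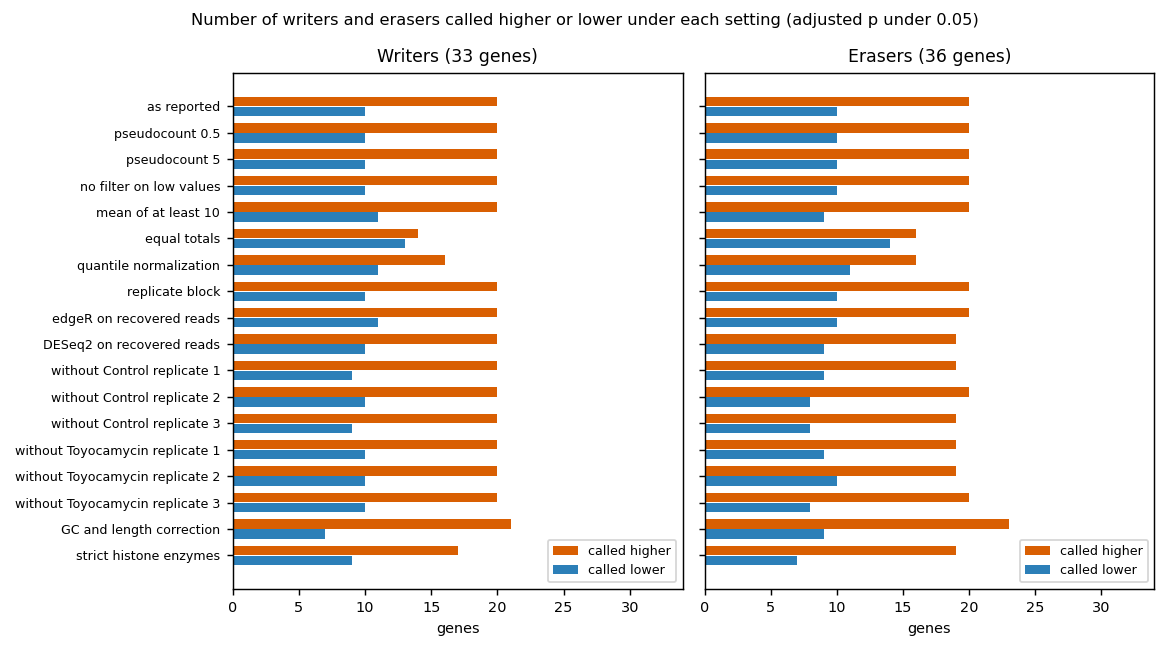
Number of writers (left) and erasers (right) called higher (orange) or lower (blue) with adjusted p below 0.05 in each fit. Writers called higher range from 14 with equal totals to 21 after the GC and length correction, apart from the narrower list of histone enzymes.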

How the data were processed

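RNA was sequenced in 3 Control and 3 Toyocamycin samples. The submitters' processing notes name cutadapt 4.7, FastQC and build mm10. Aligner, counter, strand setting and annotation: not given in the sources used here. Although its name says FPKM, the authors' table holds a normalised signal: 100% of the deposited values were whole multiples of 1 step per sample (tolerance 0.01 reads), so they are reads divided by 1 size factor per sample. Recovered totals were 22.3 M to 36.7 M reads.

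Values were tested as log2(value + 1) in the 16223 genes whose mean reached 1, using limma 3.58.1 (R 4.3.3) with its trend option. Tests were two-sided, and p-values were adjusted over all of these genes by the Benjamini-Hochberg method. The edgeR 4.0.16 quasi-likelihood test and DESeq2 1.42.0 on recovered reads, other scalings, filters and pseudocounts, and each sample left out were alternatives. Of these fits, only the main limma fit and the edgeR fit were tested on simulated data. Few genes were changed there, as many up as down, so the scaling was not tested. Spans, exons and transcripts came from GENCODE M21 (GRCm38), which matched 97.7% of tested genes. Promoters came from RefSeq (GRCm38.p6). Copies were sought with BLAST at 95% identity over at least 200 bases.

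Members, lists, paralog pairs and motifs were chosen with earlier results of these data known. Values per sample are given for members past the threshold with a log2 change of size 1 or more and for their paralogs, and partner lists name at most 3 genes each. Some further members are named with values where their call changed or their groups overlapped. The replicate numbers did not pair the samples.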

Additional observations from a re-analysis of the deposited data

How the results depend on the processing

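The counts of writers and erasers called higher or lower stayed within 1.5 times the reported count in all alternatives, with 20 writers higher and 9 to 10 lower, and 19 to 20 erasers higher and 8 to 10 lower, when 1 sample was left out. With the replicate block 20 writers were higher and 10 lower, and it changed no call of a member. After the group mean of each gene was subtracted, what remained in same-numbered samples correlated at −0.008, 0.023 and −0.041. Some small changes turned. With equal totals Hdac7 had −0.06, Sirt7 −0.09, Ezh1 −0.29, Kmt2a −0.03, Kmt5a −0.07 and Setd7 −0.35. With quantile normalization Hdac7 had −0.06, Hdac8 0.06, Sirt7 −0.11, Kdm2a −0.04, Kdm4a −0.09, Ezh1 −0.26, Ep300 −0.05, Kat8 0.05, Kmt2a −0.15, Kmt5a −0.23, Setd1a −0.10 and Setd7 −0.44. After the GC and length correction, chosen after seeing the data, Hdac10 had 0.34, Hdac5 0.34, Kdm6b 0.21, Kat5 0.08, Ehmt2 0.05, Kmt2b 0.08 and Setd7 −0.24. Among paralog ratios, also tried after seeing the data, Kat2a to Kat2b turned to 0.11, Kat6a to Kat6b to −0.54 and Kdm1a to Kdm1b to −0.04 with quantile normalization, and Kat2a to Kat2b to 0.46 and Kdm3a to Kdm3b to −0.20 after the correction. The cause was not tested. Few reads were found for Hdac9, Kdm4d and Hdac11, each under 20 normalised reads in every sample.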
